A study of Mus musculus with 10 samples.

Results

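The mitochondrial fusion and fission machinery is described here by 9 genes of the deposited count table: Mfn1, Mfn2 and Opa1 of fusion, Oma1 and Yme1l1 of OPA1 cleavage, Dnm1l, Mff and Fis1 of fission, and Pink1 of mitochondrial quality control. They were chosen by name and not by a threshold on their values. All 9 were found among the 23337 genes of the table and passed the filter on low counts that left 11870 genes for testing. The RNA came from cardiomyocytes of 10 mice with floxed alleles of Actn2, the gene of the Z-line protein alpha-actinin-2. All 10 animals received the adeno-associated virus AAV9-cTNT-Cre on postnatal day 1, in which the cardiac troponin T promoter drives Cre recombinase, and cells were collected on postnatal day 14 by collagenase perfusion and fluorescence-activated sorting. The 5 knockout animals carried the genotype Actn2 F/F, with both alleles floxed, and the 5 heterozygotes, which served as controls, carried Actn2 F/+. The controls thus share the virus and Cre with the knockouts and have 1 allele open to recombination, and no group without virus was analysed here. The labels do not name the fluorescent signal used in the sort.

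Mitochondria fuse and divide through large GTPases of the dynamin family. MFN1 and MFN2 join outer membranes, OPA1 joins inner membranes and shapes cristae, and DRP1, the product of Dnm1l, is drawn to the outer membrane by receptors such as MFF and FIS1 and constricts it. The proteases OMA1 and YME1L1 cut long OPA1 into short forms, OMA1 mainly under stress. The kinase PINK1 gathers on damaged mitochondria and marks them for removal. Adult cardiomyocytes hold their mitochondria in rows between the myofibrils, and in mice the mitofusins are known to be needed for the growth and maturation of heart mitochondria after birth.

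In brief, Mfn1 fell to 0.694 of the heterozygote level in the knockout, with no overlap between the groups, while the difference for its paralog Mfn2 lay within the spread between animals. Oma1 and Pink1 also passed the test, each lower in the knockout. The call of Oma1 was lost without heterozygote 1. The call of Pink1 stood close to the threshold and was lost in 8 of the 10 fits without 1 animal. The 3 genes of fission did not pass the test, nor did Opa1 and Yme1l1. Of the 9 genes, 3 were called lower and 0 higher, where a call means that the Benjamini-Hochberg p from the quasi-likelihood fit of edgeR was under 0.05. Among all tested genes, 8.64% were called lower and 10.2% higher, 18.9% in all. The median log2 fold change of the 9 genes was -0.13, against 0.0023 over all tested genes. Scaling by library totals alone turned the split over all genes from 1216 higher and 1025 lower to 1684 higher and 760 lower, and left 2 of the 9 genes called.

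Total counts ran from 8086656 to 25237696 per animal, with heterozygote 1 the deepest. The targeted gene followed the labels, with Actn2 at 2677 to 3474 CPM in the heterozygotes and 1145 to 1286 CPM in the knockouts. CPM is the count scaled by the total over the tested genes after TMM correction. The 12 cardiomyocyte markers summed to 124300 to 160100 CPM over the 10 animals. The 14 endothelial markers summed to 829 to 1497 CPM in the heterozygotes and 533 to 960 CPM in the knockouts, and all 14 had a negative log2 fold change, of which 2 were called. With the mean log2 level of these markers as a covariate, Mfn1 was at -0.55 (adjusted p 0.00762), Oma1 at -0.57 (0.0343) and Pink1 at -0.45 (0.0360). A list of 14 interferon-response genes summed to 765 CPM in heterozygote 3 and to at most 66.2 CPM in the other animals, and results without that animal are given where a call changed. In RNA from many cells, fewer cells of a type and less RNA per cell cannot be told apart.

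The Mfn1 gene (chromosome 3, 32529482 to 32579225, mm10, plus strand) has 18 exon blocks in the annotation used for counting. None of the 9 genes shared exon sequence with another gene of the table, and reads that match Mfn1 and its paralog Mfn2 alike would be dropped by the counting. It was at 429, 352, 396, 371 and 400.2 CPM from heterozygote 1 to heterozygote 5, while knockouts 1 to 5 stood at 279, 294, 260, 267 and 255 CPM. Every knockout lay below every heterozygote. Mfn1 was the 1 gene of the 9 whose groups did not overlap; over all tested genes 14.7% had groups apart, 6.32% with the knockout lower and 8.41% with it higher. Mfn1 averaged 390 ± 29.1 CPM in heterozygotes and 271 ± 15.7 CPM in knockouts (SD, n = 5). On the log2 scale this was a difference of -0.53 with SE 0.0844 (adjusted p 0.000652, edgeR). Of all tested genes, 9.38% had a lower log2 fold change. The call held with each of the 10 animals dropped in turn (-0.56 to -0.49) and in the 10 other settings (-0.56 to -0.45).

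Mfn2, whose product also tethers mitochondria to the sarcoplasmic reticulum, lies on chromosome 4 at 147873595 to 147904819, on the minus strand. It was at 1675, 1586, 1651, 1189 and 1448 CPM across heterozygotes 1 to 5, and knockouts 1 to 5 had 1486, 1625, 1253, 1303 and 1364 CPM. The groups overlapped throughout, and the lowest animal was heterozygote 4. On the log2 scale the knockout differed by -0.10 with SE 0.108 (adjusted p 0.560, edgeR), with a 95% interval that spans 0.794 to 1.09 of the heterozygote level. The interval of Mfn1 ran from 0.613 to 0.787, just below it. Whether the 2 changes differ was not tested. Per kilobase of exon, the ratio of Mfn1 to Mfn2 was 0.247, 0.215, 0.232, 0.302 and 0.267 from heterozygote 1 to heterozygote 5. In knockouts 1 to 5 it was 0.181, 0.175, 0.200, 0.198 and 0.180. The ratio did not overlap between the groups. It was computed after the values of both genes had been seen, so it is a description and was not tested.

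**Figure D1:**
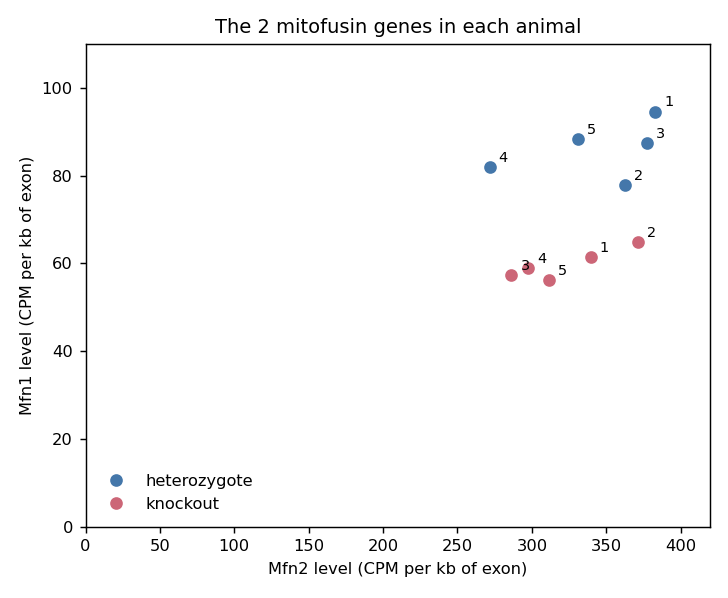
Each point is 1 animal (number: replicate), with the Mfn2 level on the x axis and the Mfn1 level on the y axis, both in CPM per kilobase of exon. The groups overlap along the Mfn2 axis and are apart along the Mfn1 axis, with heterozygotes at 77.8 to 94.6 and knockouts at 56.2 to 64.8.

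Opa1, the GTPase of inner-membrane fusion, lies on chromosome 16 at 29579334 to 29654602. It was at 288, 191, 254, 235 and 254 CPM from heterozygote 1 to heterozygote 5, while knockouts 1 to 5 stood at 230.3, 241, 194, 193 and 193 CPM. The lowest of all 10 animals was heterozygote 2, so the groups overlapped, although the knockouts were lower on average. On the log2 scale the knockout differed by -0.22 with SE 0.115 (adjusted p 0.214, edgeR), and the 95% interval spans 0.726 to 1.02 of the heterozygote level. With limma's voom and sample weights, Opa1 passed the threshold (-0.29, adjusted p 0.04995). Counts per gene hold no information on OPA1 splice forms or on cleavage of the protein.

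The protease genes of OPA1 differed in their calls. Oma1, on chromosome 4 at 103313846 to 103366428, was at 52.6, 47.6, 42.2, 33.5 and 39.6 CPM across heterozygotes 1 to 5, and knockouts 1 to 5 had 34.8, 31.9, 31.7, 31.9 and 25.9 CPM. In 4 of 5 knockouts Oma1 lay below the lowest heterozygote, and knockout 1 lay above that animal alone. On the log2 scale the knockout differed by -0.47 with SE 0.126 (adjusted p 0.0175, edgeR), or 0.722 of the heterozygote level. The call was lost without heterozygote 1, which had the highest Oma1 level and the deepest library (-0.38, adjusted p 0.0542), and held in the other 19 settings. Yme1l1, which cuts OPA1 in unstressed mitochondria, is on chromosome 2 at 23156505 to 23199260. It was at 70.1, 47.8, 55.4, 71.6 and 68.8 CPM from heterozygote 1 to heterozygote 5, while knockouts 1 to 5 stood at 58.8, 59.7, 55.9, 60.7 and 53.0 CPM. All knockouts lay within the range of the heterozygotes, whose spread was 16.9% of the mean against 5.43% in the knockouts. The log2 fold change of Yme1l1 was -0.13 with SE 0.114 (adjusted p 0.490, edgeR). Per kilobase, Oma1 was at 1.15 to 2.44 of the Yme1l1 level in the heterozygotes and at 1.19 to 1.45 in the knockouts, which overlap.

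The 3 genes of fission were not called. Dnm1l, which encodes the constricting GTPase DRP1 (chromosome 16, 16312233 to 16359030), was at 237, 177, 178, 198 and 199.6 CPM across heterozygotes 1 to 5, and knockouts 1 to 5 had 218, 212, 173, 187 and 189 CPM. Its means were 198 ± 24.1 and 196 ± 18.7 CPM (SD, n = 5), and the groups overlapped. On the log2 scale the knockout differed by -0.02 with SE 0.103 (adjusted p 0.928, edgeR), with an interval of 0.847 to 1.15 of the heterozygote level, and it turned to 0.06 with library totals alone. Fis1, the gene of a small tail-anchored outer-membrane adaptor (chromosome 5, 136953275 to 136966234), was at 96.2 to 127 CPM in the heterozygotes and 89.1 to 116 CPM in the knockouts. Its log2 fold change was -0.04 with SE 0.106 (adjusted p 0.831, edgeR), with an interval of 0.830 to 1.14, and it turned to 0.04 with library totals alone and to 0.02 with voom. Mff, the gene of a main DRP1 receptor (chromosome 1, 82724918 to 82752389), was at 256 to 294 CPM in the heterozygotes and 244 to 275 CPM in the knockouts. In 3 of 5 knockouts Mff lay below the lowest heterozygote. Mff varied least of the 9 genes, with a spread of 5.68% of the mean in the heterozygotes and 4.42% in the knockouts. Its log2 fold change was -0.10 with SE 0.0794 (adjusted p 0.414, edgeR), with an interval of 0.829 to 1.05. For none of the 3 genes did the interval reach a change as large as 0.787, the end of the Mfn1 interval nearest to 1. The ratio of Fis1 to Mff per kilobase was 0.563 to 0.836 in the heterozygotes and 0.597 to 0.738 in the knockouts.

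Pink1, the quality-control kinase gene (chromosome 4, 138313410 to 138326296, minus strand) was at 612, 652, 703, 508 and 646 CPM from heterozygote 1 to heterozygote 5, while knockouts 1 to 5 stood at 440.1, 542, 492, 476 and 563 CPM. In 3 of 5 knockouts it lay below the lowest heterozygote, and heterozygote 4 alone lay within the range of the knockouts. Pink1 averaged 624 ± 72.6 CPM and 503 ± 49.6 CPM (SD, n = 5). The difference was -0.31 on the log2 scale with SE 0.102 (adjusted p 0.0469, edgeR). This call stood close to the threshold: dropping 1 animal at a time ended it in 8 of 10 cases, and it held without heterozygote 4 (adjusted p 0.0135) and without knockout 5 (0.0425). Among the 8 lost calls, the adjusted p was 0.109 both without knockout 1 and without heterozygote 3 (-0.27 each), the highest values. It was also lost with library totals alone (-0.23, adjusted p 0.127), without a filter (-0.31, 0.0674) and with Y-linked expression as a covariate (-0.27, 0.0751). Its direction held in the settings run, with log2 fold changes of -0.45 to -0.23.

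**Figure D2:**
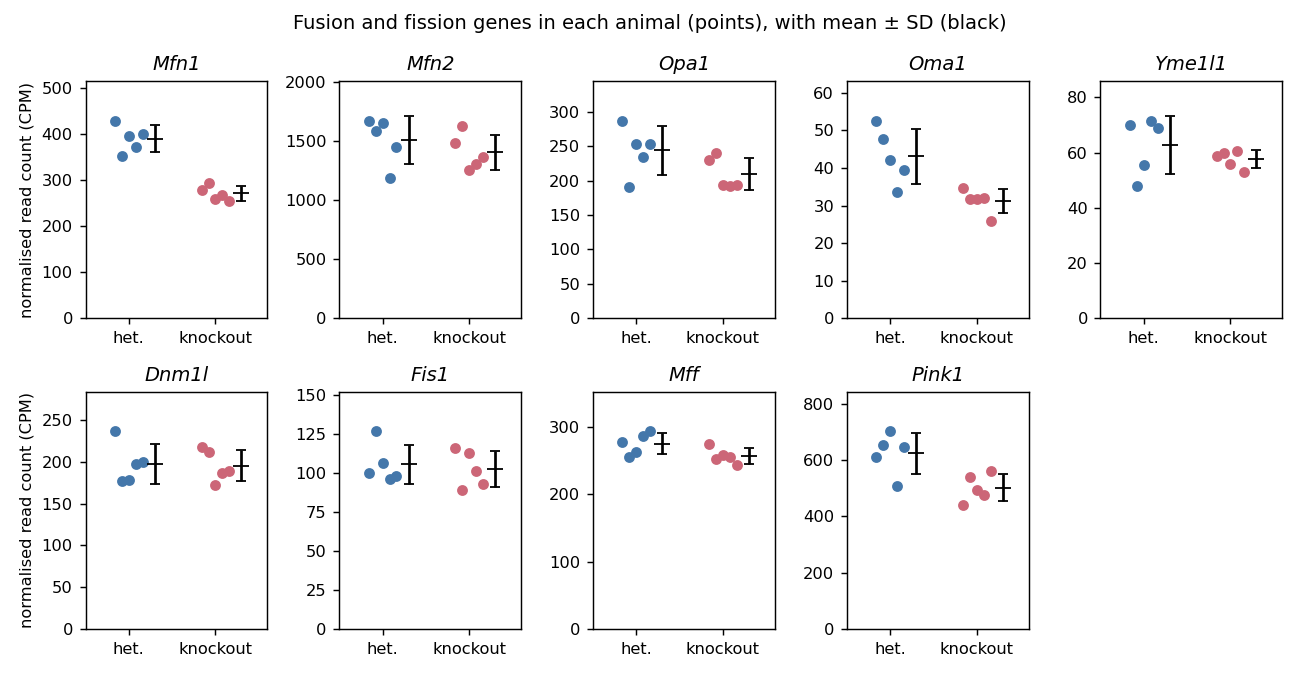
Each panel shows 1 gene, with the normalised read count in CPM on a y axis that starts at 0, the 5 heterozygotes (blue) and 5 knockouts (red) as points in the order of their numbers, and the mean ± SD in black. The groups are apart for Mfn1 alone, and Oma1 and Pink1 overlap through 1 heterozygote each.

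**Figure D3:**
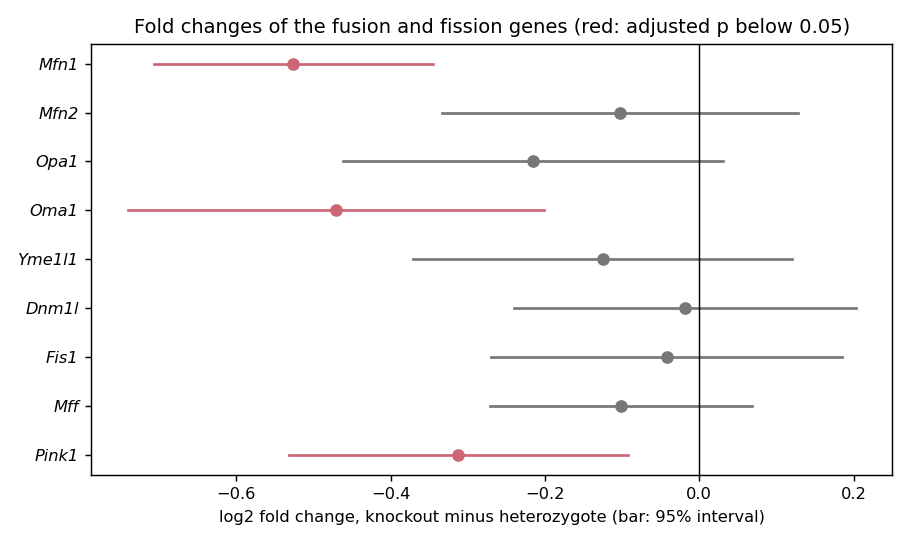
Points show the log2 fold change of each gene, knockout minus heterozygote, and bars its 95% interval from the edgeR fit, in red where the adjusted p is below 0.05. Mfn1 (-0.53), Oma1 (-0.47) and Pink1 (-0.31) lie below 0 with their intervals, and the intervals of the other 6 genes include 0.

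Levels of different genes were compared per kilobase of exon, as CPM divided by exon length. Exon length was the annotated total of each gene, and which exons these cells use was not examined. Mfn2 was the most abundant of the 9 in both groups, at 345 ± 45.7 in the heterozygote and 321 ± 34.3 in the knockout (CPM per kilobase, SD, n = 5). Pink1 followed at 264 ± 30.7 and 212 ± 21.0, then Mff, Fis1, Mfn1, Dnm1l, Opa1 and Oma1, down to Yme1l1 at 13.7 ± 2.31 and 12.6 ± 0.685. The order of the means was the same in both groups. In the heterozygotes the ranges of neighbours in this order overlapped for Mfn2 and Pink1, for Fis1 and Mfn1, and for Dnm1l and Opa1. In the knockouts no neighbours overlapped: Mfn1 (56.2 to 64.8) was below Fis1 (80.8 to 105), from which it could not be parted in the heterozygotes (77.8 to 94.6 and 87.3 to 115). The level of Mfn1 was 0.252 ± 0.0337 of the Mfn2 level in the heterozygote and 0.187 ± 0.0114 in the knockout. The 2 GTPases Dnm1l and Opa1 were close to each other, with a ratio of 1.04 to 1.37 in the heterozygotes and 1.30 to 1.45 in the knockouts.

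**Figure D4:**
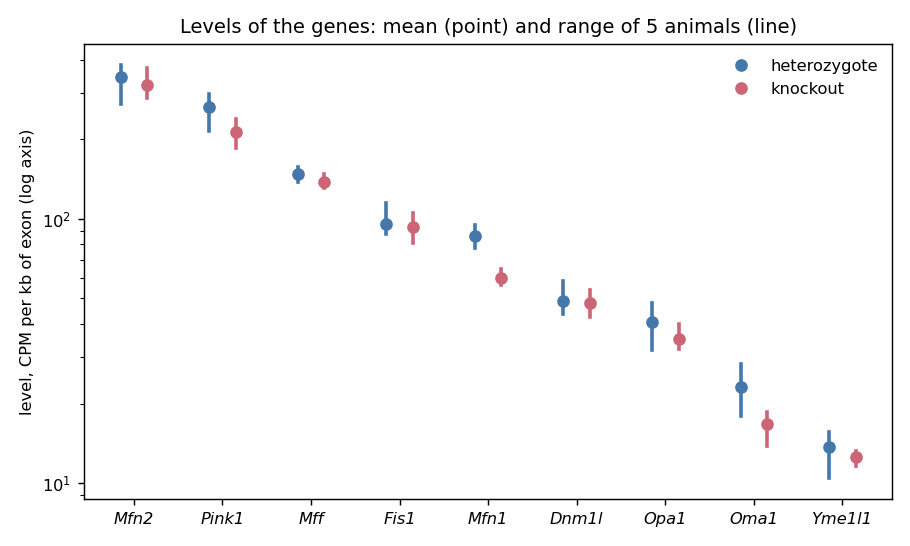
Points are group means and lines the range of the 5 animals, in CPM per kilobase of exon on a log axis, with genes ordered by the heterozygote mean. The levels run from 345 for Mfn2 to 13.7 for Yme1l1 in the heterozygote, and the 2 groups part for Mfn1 alone.

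Animals of a group also differed from one another, and some of the 9 genes varied together. After the group mean was taken off the log2 values (CPM plus 1), Mfn1 and Opa1 had a Pearson r of 0.954 (Spearman rho 0.915) over the 10 animals, the highest of the 36 pairs. The r was 0.919 over 8 animals, without the 2 farthest from the median of Mfn1. Opa1 was also among the 5 genes most like Mfn1 by this measure over all tested genes, behind Ehbp1 (r 0.970), Trip12 (0.968) and the complex I gene Ndufs1 (0.960), and ahead of Calu (0.953). These genes did not share the direction of the group difference: Ndufs1 was lower in the knockout (-0.37, edgeR adjusted p 0.0183), Trip12 was higher (0.42, 0.0156), and Ehbp1 and Calu were not called (0.30 and 0.11). The lowest r of the 36 pairs was -0.675, between Mff and Pink1, and 22 of the 36 were positive. The highest r values were picked from the 36 pairs and from all tested genes, and the spread of r over all gene pairs is not given here. All values of an animal come from 1 library, so they share its depth and RNA quality.

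Upstream sequences are shown for the 3 called genes, which moved in the same direction, and for Mfn2 as the paralog that was not called. RefSeq (GRCm38.p6) promoter entries were matched for all 9 genes. The stretch printed runs from 250 to 51 bases before the start site nearest to the 5′ end of the gene in the count table, 5′ to 3′ along the gene, with each CG dinucleotide in capitals. The start site is at that 5′ end for Mfn1, Oma1 and Pink1, and 90 bases from it for Mfn2. The last bases of the entry, past the start site, were found in GENCODE transcripts of Mfn1 and Pink1 but not of Mfn2 and Oma1. The windows are chr3:32529232-32529431 (plus strand), chr4:147904960-147905159 (minus), chr4:103313596-103313795 (plus) and chr4:138326347-138326546 (minus).
Mfn1: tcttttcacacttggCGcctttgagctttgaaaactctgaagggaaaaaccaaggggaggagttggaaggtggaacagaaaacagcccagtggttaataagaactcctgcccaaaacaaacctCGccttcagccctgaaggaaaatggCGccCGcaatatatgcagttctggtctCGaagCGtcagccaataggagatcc
Mfn2: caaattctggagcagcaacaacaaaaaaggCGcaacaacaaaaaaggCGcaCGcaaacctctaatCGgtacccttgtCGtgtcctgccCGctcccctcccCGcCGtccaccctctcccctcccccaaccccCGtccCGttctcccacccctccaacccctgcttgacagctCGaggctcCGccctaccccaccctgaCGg
Oma1: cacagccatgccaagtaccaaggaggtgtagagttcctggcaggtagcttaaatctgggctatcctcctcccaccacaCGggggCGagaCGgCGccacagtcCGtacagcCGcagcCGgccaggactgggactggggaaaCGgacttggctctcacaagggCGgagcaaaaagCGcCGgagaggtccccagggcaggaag
Pink1: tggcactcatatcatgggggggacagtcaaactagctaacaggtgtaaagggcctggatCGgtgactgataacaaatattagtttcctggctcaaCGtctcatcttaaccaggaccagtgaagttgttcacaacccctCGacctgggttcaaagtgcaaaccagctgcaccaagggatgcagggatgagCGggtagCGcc
The 3 called genes did not share a base composition. Mfn1 and Pink1 held 6 and 5 CG dinucleotides at 49.0% and 51.5% G and C, while Oma1 held 11 at 63.0%, close to the 13 at 62.5% of Mfn2. Over all 32851 windows of this kind the median was 4 CG dinucleotides at 51.5%. Of factors that act on mitochondrial or muscle genes, 5 motifs were searched on both strands. They were the NRF1 site with a base left open (in 2.24% of all windows), CCGGAAGT of GABP (1.40%), AAGGTCA of the ERR receptors (3.36%), AAGATGGCG of YY1 (0.508%) and the CArG box of SRF (1.16%). None of them was found in the 4 windows, which says only that these letters are not in these windows.

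Related genes were read from 4 lists written by function, with results of these data already known, and are described by counts. Of 117 genes listed, 115 were in the table and 113 were tested, and 30 were called lower and 4 higher in the knockout, or 26.5% lower against 8.64% over all tested genes. With the endothelial covariate the 34 calls fell to 22, as calls over all genes fell from 2241 to 1258.

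Among other regulators of fusion, fission and transport (28 tested), 4 were called lower and 2 higher, with a median log2 fold change of -0.11. The share called was 21.4%, near the 18.9% over all tested genes. Mtfp1, an inner-membrane protein that promotes fission, went from 157 to 262 CPM in the heterozygotes to 69.3 to 119 CPM in the knockouts, the lowest log2 fold change of the list (-1.06, SE 0.167, edgeR adjusted p 0.000570). Rhot2, the outer-membrane GTPase Miro2 that links mitochondria to motor proteins, fell from 91.5 ± 21.8 to 52.7 ± 6.93 CPM (-0.79, adjusted p 0.00179). Mtch2, an outer-membrane protein known to affect fusion, fell by 0.30 on the log2 scale (adjusted p 0.0221), a call lost in 5 of 20 settings, the fits without knockout 2 and without knockout 5 among them. The called rises were those of Fam73a, which encodes the fusion factor mitoguardin 1 (25.5 ± 2.11 to 36.8 ± 4.34 CPM, log2 fold change 0.52, adjusted p 0.00352), and of Kif5b, a kinesin heavy chain that carries mitochondria (0.41, adjusted p 0.0160). Kif5b lost its call without knockout 3 and with the endothelial covariate (adjusted p up to 0.0807). The fourth gene called lower was Stoml2, which encodes a stomatin-like scaffold protein of mitochondria (-0.44, edgeR adjusted p 0.0270), named here after its values were seen.

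The list of inner-membrane proteases, scaffolds and cristae genes had the largest share of calls among the 4 lists. It also holds genes of the matrix and the outer membrane, such as Clpx and Samm50. Of 28 tested, 13 were called lower and 0 higher, 46.4% against 18.9% over all tested genes (8.64% lower), with a median log2 fold change of -0.35. In 11 of the 28 every knockout lay below every heterozygote, as in 6.32% of all tested genes. Chchd3, a subunit of the MICOS complex that shapes crista junctions, fell from 378 ± 42.3 to 248 ± 24.8 CPM (log2 fold change -0.61, edgeR adjusted p 0.000821). Clpx, the unfoldase of a matrix protease, fell from 219 ± 36.3 to 135 ± 11.2 CPM (-0.70, adjusted p 0.000917). Samm50, which inserts proteins into the outer membrane and binds MICOS, fell from 381 ± 55.9 to 253 ± 5.83 CPM (-0.59, adjusted p 0.00105). The 5 knockouts lay below the 5 heterozygotes for each of these 3 genes.

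Among genes of mitophagy, 2 of 27 tested were called lower and 1 higher, 11.1% against 18.9% over all genes, and the median was 0.06. The 3 called genes moved in both directions. Optn, an autophagy receptor that binds ubiquitin on damaged mitochondria, fell from 69.1 to 77.0 CPM in the heterozygotes to 48.1 to 52.4 CPM in the knockouts (log2 fold change -0.55, SE 0.0770, edgeR adjusted p 0.000214). Phb2, an inner-membrane prohibitin that is also on the inner-membrane list, fell from 402 ± 106 to 245 ± 20.1 CPM (-0.71, adjusted p 0.00342). Sqstm1, the autophagy receptor p62, rose from 399 ± 41.4 to 530 ± 44.1 CPM (0.41, adjusted p 0.00758), and lost its call with the endothelial covariate (adjusted p 0.113).

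Genes of protein import and the outer membrane (31 tested) served as a view of mitochondria at large, and 12 were called lower and 1 higher, 41.9% against 18.9% over all tested genes, with a median of -0.30. Hspd1, the chaperonin of the matrix, fell from 354 ± 25.5 to 242 ± 18.2 CPM (log2 fold change -0.55, edgeR adjusted p 0.000608). Timm23, the channel of the inner-membrane translocase, went from 51.0 ± 3.89 to 34.1 ± 3.02 CPM (-0.58, adjusted p 0.000721), and Hspa9, the matrix motor chaperone mortalin, from 973 ± 61.1 to 708 ± 68.2 CPM (-0.46, adjusted p 0.00244). Tomm34, a cytosolic cochaperone of import, rose from 31.0 ± 2.94 to 44.6 ± 4.81 CPM (0.53, adjusted p 0.00267). Against the median of the import list, the log2 fold changes of Mfn1 (-0.53) and Oma1 (-0.47) lay below, and that of Pink1 (-0.31) lay close to it. Those of Opa1 (-0.22), Yme1l1 (-0.13), and Mfn2, Dnm1l, Fis1 and Mff (-0.10 to -0.02) lay above it. Whether the fusion and fission genes differ from mitochondrial genes in general was not tested.

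**Figure D5:**
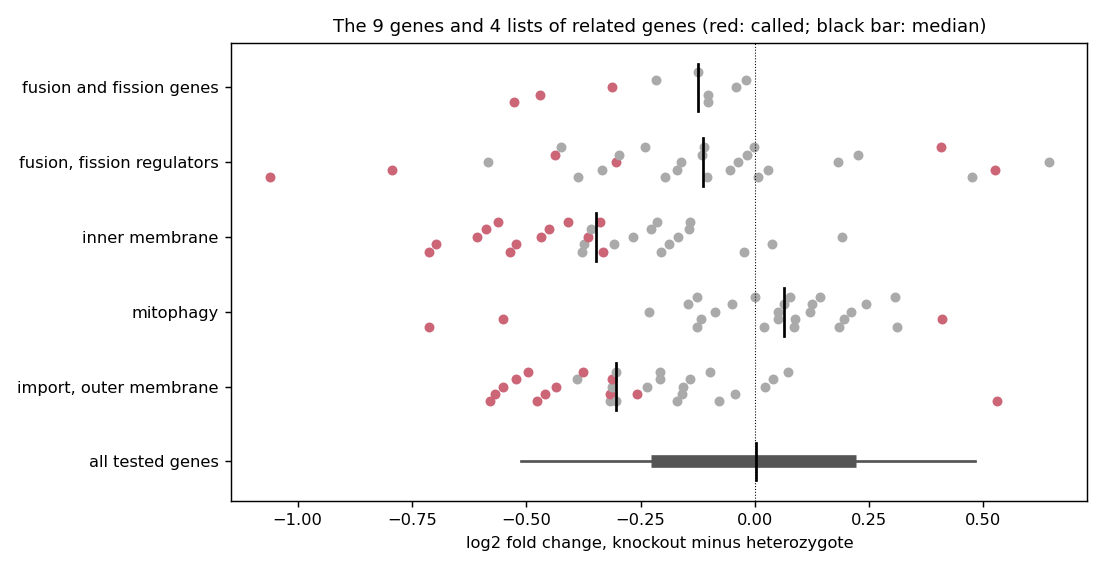
Each point is the log2 fold change of 1 gene, knockout minus heterozygote, in red where the edgeR adjusted p is below 0.05, with the median of each row as a black bar. The bottom row gives all tested genes, as the span from the 10th to the 90th percentile (line) and from the 25th to the 75th (thick bar), and the inner-membrane and import lists have medians of -0.35 and -0.30 against 0.0023 there.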

How the data were processed

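Messenger RNA of sorted cardiomyocytes was measured in 10 animals. The deposited values are raw whole-number counts of reads per gene. The authors ran featureCounts 1.5.1 on 4 threads with no other option and a UCSC annotation of mm10, per the file headers. Those defaults ignore strand and drop reads of several places or genes, so genes with near-identical copies can be undercounted. STAR 2.5.3a and Subread 1.5.2 are named in the submitters' processing notes, while the alignment files in the header carry another aligner's default name. Of 14 count columns, 10 match samples here and 4 were not used.

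Genes were kept by filterByExpr (minimum count 10, minimum total 15), scaled by TMM and compared with edgeR 4.0.16 (quasi-likelihood F test, R 4.3.3, limma 3.58.1 for voom, DESeq2 1.42.0 as an alternative) in 1 model of genotype with the 10 samples. Adjustment was by Benjamini-Hochberg over the 11870 tested genes. The standard error is the log2 fold change divided by the square root of F. The procedure was tested on simulated data, with changes larger than those of the fusion and fission genes. That test gives no error rate for changes of their size. Labels do not say how animals were paired or batched. The p-values set the group difference against the spread between these animals, estimated with information shared over genes. Replicate pairs differed by a chi-square of at least 10.8 per degree of freedom, so none was a copy.

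A gene of the set is not reported here and is left out of the counts and medians of the 9 genes; it stayed in the fit over all genes. The 9 genes, the 4 lists of related genes, the marker lists and the alternatives were chosen with earlier results of these data known. From each related list the text names up to 3 called genes with the smallest p in each direction, and for Mfn1 the 5 genes of highest correlation. The smallest share that 3 counts allow in 1 animal was 1.19e-05% to 3.71e-05%, for counting error only.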

Additional observations from a re-analysis of the deposited data

Results flagged for a closer look

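In 28 groups of 5 values (the log2 level of a gene, a ratio between 2 genes, or the total counts, in 1 genotype), a single one held an animal set off from its nearest neighbour by more than 0.71 of the spread between lowest and highest; chance alone gives about 1. That animal was heterozygote 1, with 25237696 total counts where heterozygote 5 came next at 10309615, a gap of 0.870 of the spread. No level of the 9 genes and no ratio between them stood apart in this way. Without heterozygote 1, Mfn1 was at -0.49 (edgeR adjusted p 0.00313), Oma1 at -0.38 (0.0542) and Pink1 at -0.32 (0.0730), so that 1 of the 9 genes was called in place of 3.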

How the results depend on the processing

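All alternatives were chosen with earlier results known. Leaving out each animal in turn gave log2 fold changes of -0.56 to -0.49 for Mfn1, -0.18 to -0.06 for Mfn2, -0.29 to -0.15 for Opa1, -0.0579 to 0.0563 for Dnm1l, -0.0885 to 0.0340 for Fis1, -0.13 to -0.08 for Mff, -0.55 to -0.38 for Oma1, -0.21 to -0.08 for Yme1l1 and -0.38 to -0.27 for Pink1, with 1 to 3 of the 9 genes, 25 to 37 related genes and 1699 to 2258 of all genes called. Library totals alone turned Dnm1l (0.0609) and Fis1 (0.0391) and ended the call of Pink1 (-0.2268), as did no filter (-0.3053) and the Y-linked covariate (-0.2676). Voom turned Fis1 (0.0239) and called Opa1 (-0.2883). The endothelial covariate left 1258 of 2241 genes and 22 of 34 related genes called; the cause was not tested. Deviations of animals with the same number correlated over genes at 0.111, -0.0106, -0.0547, 0.225 and 0.104 for numbers 1 to 5, and 2 of 5 heterozygotes correlated best with the knockout of their number. The labels give no shared litter or day for a number, and not every pair was above 0.1, so the animals were not treated as paired. With the replicate block, 2182 genes, 29 related genes and 3 of the 9 were called, Pink1 at an adjusted p of 0.0491. Depth limits Oma1 most, with 302 to 1253 counts per animal.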

Other observations

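Marker lists of other cell types were measured in the same libraries. The 10 fibroblast markers summed to 336 to 552 CPM in the heterozygotes and 323 to 655 CPM in the knockouts, and 0 of the 9 tested were called. The 8 mural-cell markers summed to 475 to 700.2 CPM and 542 to 697 CPM, and 1 was called, higher in the knockout. That was Cspg4, at 37.0 ± 6.39 and 132 ± 21.3 CPM (log2 fold change 1.84, edgeR adjusted p 1.23e-06). Of the 8, 6 had a negative log2 fold change, and the median was -0.33. The largest part of the sum was Abcc9, at means of 388 and 324 CPM. The 11 macrophage and blood markers in the table summed to 15.4 to 42.9 CPM and 9.73 to 12.5 CPM, with 1 of the 5 tested called lower, and the globin genes Hba-a1 and Hbb-b1 had 0 counts in every animal, where reads of near-identical copies are dropped by the counting. Of the 12 cardiomyocyte markers, 1 was called higher and 2 lower. Of the 8 interferon-response genes tested, 2 were called lower (25%), Usp18 and Rsad2. Over all tested genes 18.9% were called, 8.64% lower. In the heterozygotes Usp18 ran from 1.01 to 43.1 CPM and Rsad2 from 5.28 to 22.3 CPM. Usp18 averaged 9.94 ± 18.5 CPM in the heterozygotes and 1.08 ± 0.395 CPM in the knockouts (SD, n = 5). Rsad2 averaged 9.60 ± 7.17 CPM and 3.87 ± 1.135 CPM. Fits of Usp18 and Rsad2 without heterozygote 3 are not given here. The summed level of the list was highest in heterozygote 3, and its median was 56.7 CPM in the heterozygotes and 60.6 CPM in the knockouts. The part of these cells in the results on the 9 genes was not tested, apart from the endothelial covariate.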
